A study of Mus musculus with 6 samples.

Results

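Keratins are the intermediate filament proteins of epithelia, and 8 of their genes mark the cell layers of the mammary gland. Krt7, Krt8, Krt18 and Krt19 were taken as luminal keratins and Krt5, Krt14, Krt15 and Krt17 as basal keratins. A probe set belonged to a member if the platform annotation gave it that gene's symbol and no other, which gave 13 probe sets for the 8 genes, out of 18193 genes with a probe set of their own on the array. The samples were total RNA of mammary gland, taken at 10 and at 5 weeks of age from female bitransgenic mice, with 3 pools at each age and RNA of 3 animals in each pool. All mice came from crossing the LH mouse, as the labels call it, with the MMTV-neu mouse, so both ages carried both transgenes. In MMTV-neu mice the promoter of the mouse mammary tumour virus, active in mammary epithelium, drives the neu (Erbb2) oncogene. Mice without the transgenes were not analysed here, so the values describe age within this cross only.

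Keratin filaments are built from pairs of a type I and a type II protein. Krt8 (type II) with Krt18 (type I) is the pair of simple epithelia such as the luminal layer, which lines ducts and alveoli and makes milk. Krt5 (type II) with Krt14 (type I) is the pair of basal layers, which in this gland are the contractile myoepithelial cells. Krt7 is a further type II and Krt19 a further type I keratin of luminal cells, and Krt15 and Krt17 are type I keratins known from basal cells of skin and glands.

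The deposited values were linear signal intensities, with array medians of 156.4 to 172.5, and log2 values correlated at 0.973 to 0.978 within an age and at 0.932 to 0.955 between ages. Epithelium was well represented, since Epcam, an epithelial adhesion molecule, had signals of 9112.8 to 11521.5 at 10 weeks and 4752.2 to 7006.3 at 5 weeks. Skeletal muscle RNA was also present: the summed signal of 16 muscle genes was 9038 in 10-week pool 1, 65460 and 69190 in the other 10-week pools, and 87970 to 168000 at 5 weeks. The summed signal of 5 B cell and lymph node genes was 382.7 to 1358 at 10 weeks, and it reached 3546 in 5-week pool 2, with 531.4 and 644.1 in the remaining 5-week pools. These are bulk samples, in which fewer cells of a type and less RNA per cell cannot be told apart. With 3 pools per age, precision is limited by the number of arrays. The p-values set an age difference against the spread between pools, and the spread between single animals is not seen.

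The keratins did not move as one layer against the other. Of the 4 luminal keratins, Krt8 and Krt19 were higher at 10 weeks, Krt7 was lower, and Krt18 just missed the threshold. Of the 4 basal keratins, Krt14 was higher, Krt17 was lower, and Krt5 and Krt15 did not pass the test. In all, 3 of 8 rose and 2 fell at a Benjamini-Hochberg adjusted p of 0.05 in limma, where 15.3% of all 13002 genes tested rose, 18.7% fell and 34.1% were called in either direction. All 8 genes passed the filter on dim probe sets, through 12 of their 13 probe sets. The 10-week and 5-week pools did not overlap for 6 of the 8 keratins, against 50.3% of all genes. The median log2 difference of 10 minus 5 weeks was 0.35 over the luminal and -0.18 over the basal keratins, and it was close to 0 over all genes. With the lowest 60% of probe sets left out, which removes Krt15 and Krt17, the basal median was 0.65.

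**Figure D1:**
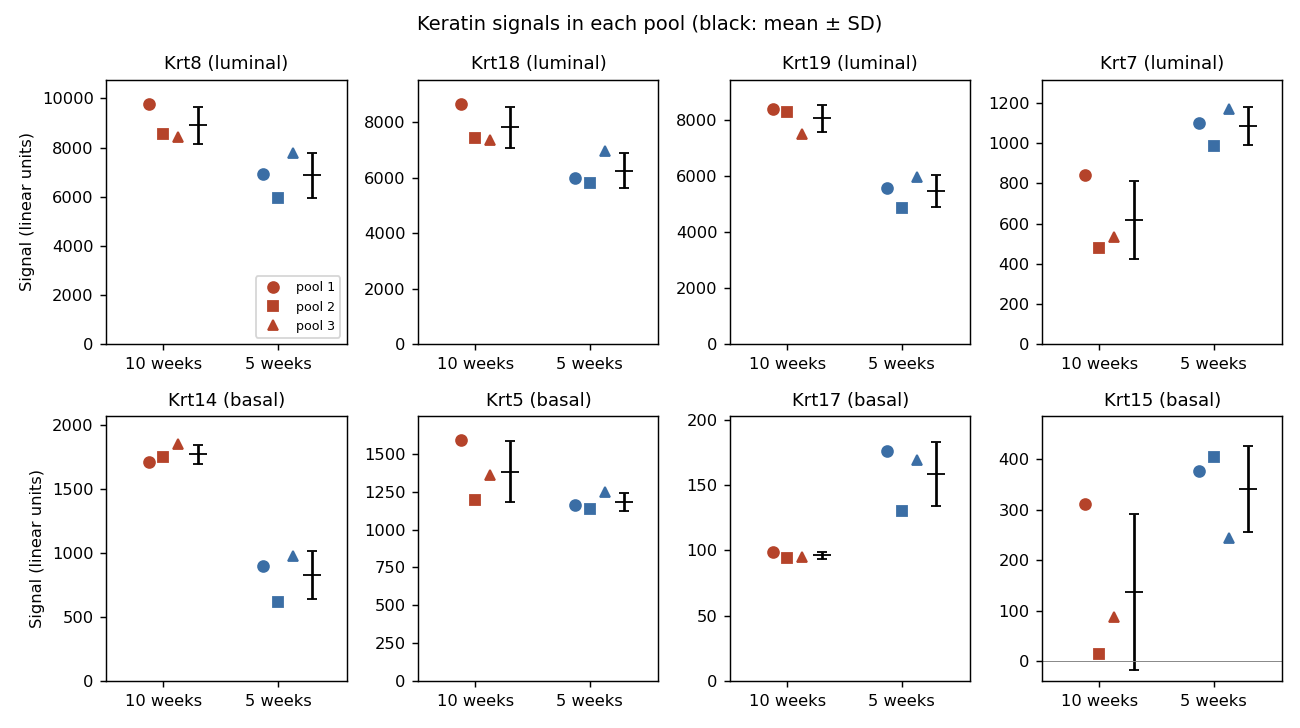
Linear signal (y axis, from 0 or below where a bar of the SD reaches there) of the probe set that stands for each keratin, in the 3 pools at 10 weeks (red, left) and the 3 at 5 weeks (blue, right), with the mean and SD in black. Krt8, Krt18, Krt19 and Krt14 lay higher in all 10-week pools, Krt7 and Krt17 lay lower, and the ages overlapped for Krt5 and Krt15.

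Sequence before the gene start is shown for Krt8, Krt18 and Krt7, since the first 2 were higher in all 10-week pools and Krt7 was lower, and for Krt5, the basal keratin with the smallest difference. Each is the 250 bases before the start, 5′ to 3′ on the gene's strand, from RefSeq on GRCm38.p6. Capitals mark matches, on either strand, to GGGCGG (the GC box that Sp1 family factors bind), GCCNNNGGC (an AP-2 type motif), CACCTG (an E-box that Snail family factors bind), TGANTCA (AP-1 type) or TTCNNNGAA (STAT type).
Krt8, chr15:102004343-102004592, minus strand: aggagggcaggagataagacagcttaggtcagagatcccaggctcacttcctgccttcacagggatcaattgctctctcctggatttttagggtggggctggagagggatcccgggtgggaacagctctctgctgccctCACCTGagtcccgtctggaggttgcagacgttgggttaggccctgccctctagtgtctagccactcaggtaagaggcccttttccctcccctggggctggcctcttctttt
Krt18, chr15:102027966-102028215, plus strand: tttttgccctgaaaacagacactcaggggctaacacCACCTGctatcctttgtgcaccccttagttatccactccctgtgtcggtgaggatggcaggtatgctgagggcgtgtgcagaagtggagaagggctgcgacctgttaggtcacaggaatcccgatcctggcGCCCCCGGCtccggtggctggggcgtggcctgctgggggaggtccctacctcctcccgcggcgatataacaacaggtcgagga
Krt7, chr15:101412153-101412402, plus strand: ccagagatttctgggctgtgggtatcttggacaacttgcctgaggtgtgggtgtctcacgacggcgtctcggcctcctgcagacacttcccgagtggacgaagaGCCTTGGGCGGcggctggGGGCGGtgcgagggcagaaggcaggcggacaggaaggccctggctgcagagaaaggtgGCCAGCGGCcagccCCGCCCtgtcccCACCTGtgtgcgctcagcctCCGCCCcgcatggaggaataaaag
Krt5, chr15:101712906-101713155, minus strand: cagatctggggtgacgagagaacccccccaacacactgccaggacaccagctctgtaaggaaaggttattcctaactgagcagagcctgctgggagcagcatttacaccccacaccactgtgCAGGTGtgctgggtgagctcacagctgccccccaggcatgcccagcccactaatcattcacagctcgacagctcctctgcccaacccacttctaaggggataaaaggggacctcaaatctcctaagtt

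The Krt7 window held 4 matches to GGGCGG, and the windows of Krt8, Krt18 and Krt5 held 0. Among 32536 distinct windows of this length in the RefSeq table, 33% held GGGCGG. GCCNNNGGC matched 2 times in the Krt7 window, once overlapping GGGCGG, and 1 time in that of Krt18, and 13.8% of all windows held it. Each of the 4 windows had 1 match to CACCTG, which 17.3% of all windows held. TGANTCA and TTCNNNGAA, found in 6.73% and 7.04% of all windows, matched in none of the 4. A match is a run of letters and was not tested as a binding site. Krt14, whose promoter entry starts inside the gene, and Krt15, Krt17 and Krt19, which have no entry, are not shown.

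Krt8 and Krt18, the simple-epithelial pair, had differences of 0.38 and 0.32 on the log2 scale, of which only that of Krt8 passed the test. The Krt8 signal on probe set 1420647_a_at was 9770.1, 8536.1 and 8412.5 at 10 weeks and 6921.1, 5946.4 and 7776.7 at 5 weeks. All 10-week values lay above all 5-week values, with 5-week pool 3 closest to them. The log2 difference was 0.38 ± 0.12 (SE), with an adjusted p of 0.0387 in limma. This call rested on most of the pools: it was lost without any 1 of the 10-week pools (adjusted p = 0.125, 0.07 and 0.063), without 5-week pool 1 (0.0825) and without 5-week pool 2 (0.112). It was also lost with quantile normalization (0.128), median scaling (0.0574), no filter (0.0761) or no variance trend (0.087).

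The other Krt8 probe sets pointed the same way. Probe set 1423691_x_at had signals of 6469.9, 5945.1 and 5747.9 at 10 weeks and 4272.5, 4066.3 and 5393.3 at 5 weeks, a log2 difference of 0.41 ± 0.12 (SE, adjusted p = 0.0312). Probe set 1435989_x_at gave the larger difference of 0.83 ± 0.27 (SE, adjusted p = 0.046) and was the more variable at 5 weeks, with 3918.8, 2492.8 and 6020.3 against 7680.4, 7325.2 and 5946.8 at 10 weeks, so that its ages overlapped. The ending _x_at marks probe sets with probes that may also detect related transcripts.

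Krt18 (probe set 1448169_at), the type I partner of Krt8, had signals of 8672, 7425.5 and 7351.7 at 10 weeks and 5977.2, 5794.1 and 6966.3 at 5 weeks. Its ages did not overlap, and 10-week pool 1 was the highest for both partners. The log2 difference of 0.32 ± 0.11 (SE, 95% interval 0.08 to 0.57) had an adjusted p of 0.0507 and did not pass. It passed with robust variance (adjusted p = 0.046), array weights (0.0364), a stricter filter (0.0433) and without 5-week pool 3 (0.0271). The log2 ratio of Krt8 to Krt18 within each array was 0.17, 0.20 and 0.19 at 10 weeks and 0.21, 0.04 and 0.16 at 5 weeks. The ratio differed by 0.05 between ages (exact two-sided permutation test, p = 0.5, n = 3 each), within the spread of the 5-week pools. With the mean of the Krt8 probe sets in place of the brightest, the ratio differed by 0.22.

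Krt19, a type I keratin that luminal cells carry beside Krt18, showed the clearest increase among the luminal members. Its signal on probe set 1417156_at was 8403.4, 8282.7 and 7512.1 at 10 weeks and 5561.2, 4855.5 and 5964.8 at 5 weeks. The lowest 10-week pool stood well above the highest 5-week pool. The mean was 8066 ± 483.5 at 10 weeks and 5460 ± 561.5 at 5 weeks (SD, n = 3 each), and the log2 difference was 0.56 ± 0.10 (SE, adjusted p = 0.00375 in limma). The call held under all 16 alternatives, with differences of 0.47 to 0.63. The signals of Krt8, Krt18 and Krt19 on their brightest probe sets lay at percentiles 97.7 to 99.2 of the arrays.

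Krt7 went the other way. Its signal on probe set 1423952_a_at was 839.2, 478.4 and 534.9 at 10 weeks and 1099.4, 984 and 1172.2 at 5 weeks. Every 10-week pool lay below every 5-week pool, and 10-week pool 1 lay nearest to them. The mean was 617.5 ± 194.1 at 10 weeks and 1085 ± 94.9 at 5 weeks (SD, n = 3 each). The log2 difference was -0.82 ± 0.19 (SE, adjusted p = 0.0136 in limma), and it stayed between -1.05 and -0.67 and past the threshold under all 16 alternatives. The largest of these differences, -1.05, came without 10-week pool 1, the pool with the least muscle signal.

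**Figure D2:**
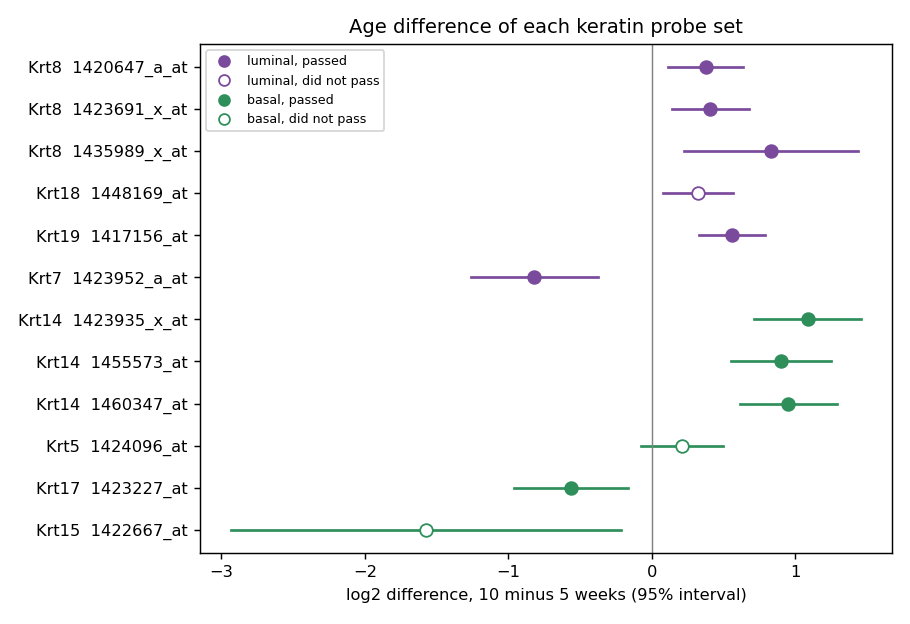
Log2 difference of 10 minus 5 weeks (x axis) for the 12 keratin probe sets tested, with the 95% interval from limma as a line, luminal in purple and basal in green. Filled points passed an adjusted p of 0.05. The 3 probe sets of Krt8 and the 3 of Krt14 lie right of 0, and those of Krt7, Krt17 and Krt15 lie left of it.

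Krt14, the type I keratin of the basal layer, had the largest increase of the 8 genes. Its signal on probe set 1423935_x_at was 1710.4, 1749.7 and 1853.5 at 10 weeks and 897.6, 617 and 977.4 at 5 weeks. The 10-week pools lay close together and far above the 5-week pools, of which pool 2 was the lowest. The mean was 1771 ± 73.9 at 10 weeks and 830.7 ± 189.3 at 5 weeks (SD, n = 3 each), and the log2 difference was 1.09 ± 0.16 (SE, adjusted p = 0.00152 in limma).

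The other Krt14 probe sets gave nearly the same size. Probe set 1460347_at had signals of 1395.4, 977.5 and 1072.3 at 10 weeks and 554.9, 540.4 and 620 at 5 weeks, a log2 difference of 0.95 ± 0.15 (SE, adjusted p = 0.00184). Probe set 1455573_at had signals of 312, 269.6 and 262 at 10 weeks and 124.9, 141.4 and 139.9 at 5 weeks, a log2 difference of 0.90 ± 0.15 (SE, adjusted p = 0.00289). The ages did not overlap on any of the 3. Under all 16 alternatives the Krt14 call held, with differences of 0.90 to 1.21.

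Krt5, the type II partner of Krt14, did not follow it. Its signal on probe set 1424096_at was 1594, 1192.6 and 1360.4 at 10 weeks and 1163.5, 1137.7 and 1247.9 at 5 weeks, and the ages overlapped through 10-week pool 2. The log2 difference was 0.21 ± 0.13 (SE, adjusted p = 0.246), with a 95% interval of -0.08 to 0.50, and it was 0.11 without 10-week pool 1, which had the highest Krt5 signal. The log2 ratio of Krt5 to Krt14 was -0.10, -0.54 and -0.44 at 10 weeks and 0.36, 0.85 and 0.34 at 5 weeks. This ratio was lower in all 10-week pools, by 0.88 on average (exact two-sided permutation test, p = 0.1, the smallest that 3 against 3 pools can give). The 10-week and 5-week pools did not overlap in this ratio, whereas they overlapped in the ratio of Krt8 to Krt18.

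Krt17 (probe set 1423227_at), a type I keratin known from stressed and appendage epithelium, had low signals of 99, 94.1 and 95.1 at 10 weeks and 176.1, 130.2 and 168.9 at 5 weeks. The 10-week pools were nearly equal and all below the 5-week pools. The log2 difference was -0.56 ± 0.18 (SE, adjusted p = 0.0413 in limma), and it was -0.70 where 1 was added to the signals before taking log2 and -0.39 where 100 was added, in place of 32. The call was lost without any 1 of the 10-week pools (adjusted p = 0.084, 0.0906 and 0.0926), without 5-week pool 1 (0.122) or pool 3 (0.109), with median scaling (0.0594) and with no filter (0.0869). A second Krt17 probe set, 1420193_at, had signals of 4.3 to 30.6 at 10 weeks and 5.5 to 10.7 at 5 weeks and was left out as dim.

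Krt15, a type I keratin of basal and stem-like cells in skin, varied most between pools. Its signal on probe set 1422667_at was 310.7, 13.5 and 87.7 at 10 weeks and 376.3, 404.1 and 243.7 at 5 weeks. The 10-week pools were far apart, and pool 1 lay above 5-week pool 3 and below the other 5-week pools. The coefficient of variation was 113% at 10 weeks and 25.1% at 5 weeks. The log2 difference of -1.57 ± 0.60 (SE, 95% interval -2.93 to -0.21) did not pass (adjusted p = 0.0806). It was -2.31 and passed without 10-week pool 1 (adjusted p = 0.00589), and it was -0.85 without 10-week pool 2 (0.186).

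On the probe sets that stand for them, 10-week pool 1 had the highest 10-week signals of Krt7, Krt8, Krt18, Krt19, Krt5, Krt15 and Krt17. The margin was small for Krt19 (8403.4 against 8282.7 in pool 2) and Krt17 (99 against 95.1 in pool 3). For Krt14 this pool was lowest on 1423935_x_at and highest on 1460347_at and 1455573_at. 10-week pool 1 was also the pool with the lowest summed muscle signal, 9038. The part of muscle RNA in these keratin values was not tested. Without this pool 2 keratins were called higher (Krt14 and Krt19) and 2 lower (Krt7 and Krt15). Krt14, Krt19 and Krt7 were called in the same direction under every one of the 16 alternatives.

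**Figure D3:**
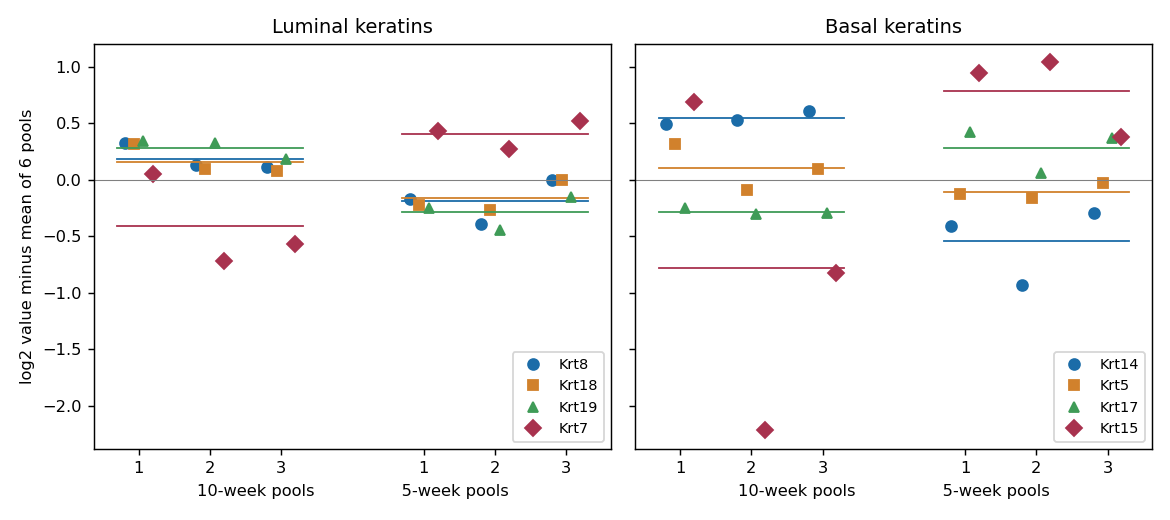
Log2 value of each keratin minus its mean over the 6 pools (y axis), by pool (x axis, 10-week pools left), with a line at the mean of each age. Krt8, Krt18 and Krt19 run close together, and the age means of Krt7 oppose theirs. The age means of Krt14 and Krt15 lie at opposite ends of the basal panel, while in 10-week pool 1 both genes lie high (0.495 and 0.691).

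The contrast of the layers depended on which keratins entered it. The mean log2 value of the 4 luminal keratins was 12.09 ± 0.18 at 10 weeks and 11.97 ± 0.15 at 5 weeks (SD, n = 3 each). That of the 4 basal keratins was 8.80 ± 0.42 at 10 weeks and 9.01 ± 0.10 at 5 weeks. The luminal mean minus the basal mean was 3.07, 3.60 and 3.18 at 10 weeks and 2.86, 2.91 and 3.11 at 5 weeks, so the ages overlapped. The difference between the ages, 0.32, turned to -0.13 without Krt15, with the ages again overlapping. Without Krt7 the contrast was 3.91, 4.60 and 4.12 at 10 weeks and 3.47, 3.53 and 3.74 at 5 weeks, a difference of 0.63 with no overlap of the ages. These 2 settings were chosen after the data were seen.

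Likeness between members was measured as the root mean square difference of log2 values over the 6 pools, each gene centred on its own mean. Krt8 and Krt18 were the closest members (0.06), followed by Krt18 with Krt5 (0.10) and Krt8 with Krt19 (0.11). Krt7 was closest to a basal keratin, Krt17 (0.26), and lay 0.60 to 0.73 from the other luminal keratins. Krt14 and Krt15 were farthest apart (1.62). Outside the keratins, Fat1, a protocadherin, and Cstf2t, an RNA processing factor, were nearest to Krt19 (0.02 and 0.03). Tspan15, a tetraspanin, and Bmf, a pro-apoptotic BCL2 family member, were nearest to Krt14 (0.04 and 0.05). Nearest to Krt7 were Tek, an endothelial receptor kinase, and Ctdspl2 (0.12 each). For Krt8 these were Lamtor5 and Zscan21 (0.04 each), for Krt18 Ogfod3 (0.03) and Rnf167 (0.04), and for Krt5 Samd5 (0.03) and Ctsc (0.04). Krt17 was nearest to Carnmt1 and Selenow (0.06 each), and Krt15 had no close match, with Plppr3 at 0.39 and Mndal at 0.46. With 6 pools, this likeness is a description only.

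The other keratins were mostly dim. Of 19 further keratin genes on the array 9 passed the filter, of which 0 rose and 2 fell, where 15.3% of all genes tested rose and 18.7% fell. With quantile normalization 8 were tested, of which 1 rose and 2 fell. Krt23, a type I keratin, had signals of 127, 170.3 and 174.7 at 10 weeks and 309.5, 391.3 and 417.3 at 5 weeks (log2 difference -1.10 ± 0.18 SE, adjusted p = 0.00227). Krt79, a type II keratin, had 135.7, 194.3 and 217.3 at 10 weeks and 295.5, 525.1 and 455.8 at 5 weeks (-1.08 ± 0.23 SE, adjusted p = 0.00909). Both were lower in all 10-week pools, in the direction of Krt7 and Krt17. Krt42, the brightest of these further keratins, had 1136.7, 993.5 and 1251.1 at 10 weeks and 861, 948.9 and 809.8 at 5 weeks. It was higher in all 10-week pools but did not pass (log2 difference 0.35 ± 0.12 SE, adjusted p = 0.0632 in limma).

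RNA of the genes whose proteins anchor keratin filaments moved in both directions. Among 8 desmosomal genes tested 4 rose and 1 fell, where 15.3% of all genes tested rose and 18.7% fell. Dsg2, the desmosomal cadherin of simple epithelia, had a signal of 3236 ± 171 at 10 weeks and 1407 ± 93.6 at 5 weeks (SD, n = 3 each), a log2 difference of 1.18. Perp rose by 0.79 and the plakophilin gene Pkp3 by 0.66 on the same scale. Dsp, the desmoplakin that binds keratins to the desmosome, fell: 532 ± 40.9 at 10 weeks and 1056 ± 105 at 5 weeks (SD, n = 3 each), a log2 difference of -0.95 (adjusted p = 0.000798 in limma).

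Of 11 tested genes of hemidesmosomes and filament linkers, 3 rose and 1 fell. Calls in either direction made up 34.1% of all genes tested, with 15.3% higher and 18.7% lower. Lamb3, a chain of the laminin that hemidesmosomes bind, had a signal of 2909 ± 120 at 10 weeks and 746 ± 140 at 5 weeks (SD, n = 3 each), a log2 difference of 1.93. The integrin genes Itga6 and Itgb4, whose products form the hemidesmosome receptor, rose by 1.35 and 0.86 on the log2 scale. Evpl, the envoplakin linker, fell by 1.16, with signals of 64.7 to 136.4 at 10 weeks and 212.4 to 259.6 at 5 weeks. Plec, the plectin that ties keratins to that receptor, had a log2 difference of -0.12 and did not pass.

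Among 7 tested genes of non-keratin intermediate filaments and lamins 0 rose, 4 fell and 3 did not pass. The shares over all genes tested were 15.3% higher and 18.7% lower. Vim, the vimentin of mesenchymal cells, had a signal of 7695 ± 1200 at 10 weeks and 13690 ± 1040 at 5 weeks (SD, n = 3 each), a log2 difference of -0.84. Nes, the nestin gene, fell by 1.04 on the log2 scale, and its probe sets averaged together gave -0.39 (adjusted p = 0.142). Des, the desmin of muscle, fell by 2.62, and its difference was -1.51 with its probe sets averaged and -1.87 without 10-week pool 1, the pool with the lowest muscle signal. The call of Des was lost with robust variance (adjusted p = 0.0791).

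**Figure D4:**
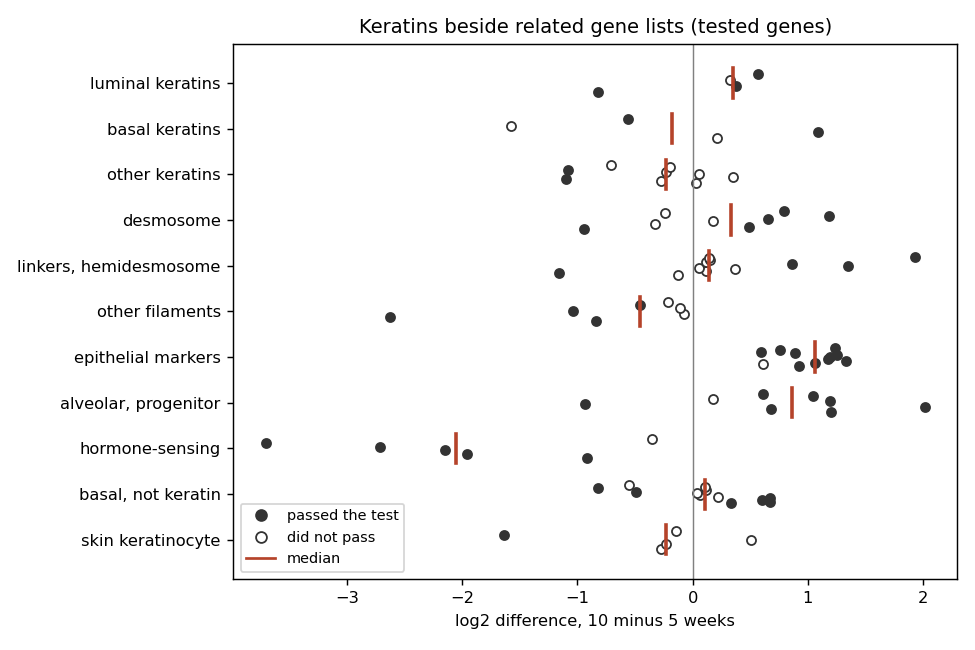
Log2 difference of 10 minus 5 weeks (x axis) for each tested gene of the keratin groups and of related gene lists, filled where the adjusted p was under 0.05, with the median of each list as a red bar. Epithelial markers lie right of 0 with a median of 1.06, while the luminal keratins have a median of 0.35.

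Markers of epithelium and of its cell types moved beside the keratins. For the counts that follow, 15.3% of all genes tested rose and 18.7% fell. Of 11 tested epithelial genes, which included Epcam and the claudin gene Cldn3, 10 rose and 0 fell, with a median log2 difference of 1.06. Their summed signal was 36000 to 42080 at 10 weeks and 15440 to 21800 at 5 weeks. The summed signal of the luminal keratins differed less, with 23810 to 27680 at 10 weeks and 17580 to 21880 at 5 weeks. That of the basal keratins was 3050 to 3714 at 10 weeks and 2289 to 2638 at 5 weeks, although the mean of their log2 values was lower at 10 weeks (8.80 against 9.01). Of 8 alveolar and luminal progenitor genes 6 rose and 1 fell. The milk protein gene Lalba rose by 1.04 on the log2 scale (adjusted p = 0.00606), and the casein gene Csn3 had a difference of 0.18 (0.24). With its probe sets averaged, Csn3 had a difference of 1.18 and passed (adjusted p = 0.00429 in limma). The sum of the 8 was 57790 to 67740 at 10 weeks and 30950 to 42110 at 5 weeks. Of 6 hormone-sensing luminal genes, among them Esr1 and Foxa1, 0 rose and 5 fell, and their sum was 1494 to 1837 at 10 weeks and 5367 to 6639 at 5 weeks. The ages did not overlap in any of these sums. Their part in the keratin differences was not tested.

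Of 12 basal genes other than keratins, 4 rose and 2 fell, where 15.3% of all genes tested rose and 18.7% fell. The median of the 12 was 0.11, and their summed signal was 34720 to 35630 at 10 weeks and 29810 to 32300 at 5 weeks. Acta2, the smooth muscle actin of myoepithelial and vessel cells, had a log2 difference of 0.34 (adjusted p = 0.0178), a call lost with quantile normalization (0.0841) or no variance trend (0.0669) and without 10-week pool 1 (0.0596), 10-week pool 3 (0.0684) or 5-week pool 2 (0.0558). Without 5-week pool 2, 2 of the 12 rose and 2 fell, with a median of -0.04. Tagln, a smooth muscle actin-binding protein gene, had a log2 difference of 0.22 (adjusted p = 0.216). Trp63, the transcription factor of basal cells, had a log2 difference of 0.11 and did not pass.

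Skin also expresses Krt5, Krt14, Krt15 and Krt17, so its markers were measured as well, where 15.3% of all genes tested rose and 18.7% fell. Of 11 skin keratinocyte genes on the array 5 passed the filter, of which 0 rose and 1 fell, Sprr1a, with a log2 difference of -1.63. Krt10, a keratin of the upper epidermis, had a difference of -0.27 (adjusted p = 0.153). The sum of all 11 was 1151 to 1314 at 10 weeks and 1484 to 1620 at 5 weeks. Without Sprr1a, a setting chosen after the data were seen, the sum of the other 10 was 1040, 996.8 and 1150 at 10 weeks and 1047, 1094 and 831.5 at 5 weeks, so that the ages overlapped. Krt1 and Krt2, defining keratins of the epidermis, had signals of 32.5 to 69.1 and 8.5 to 55.1 at 10 weeks, and of 40.7 to 45.6 and 16.2 to 44.7 at 5 weeks. Of 10 hair follicle genes 3 passed the filter and 0 of these were called in limma (2 at an unadjusted p under 0.05), with a sum of 980.6 to 1167 at 10 weeks and 903.5 to 1539 at 5 weeks. The brightest of these, the hair keratin genes Krt71 and Krt81, had log2 differences of 0.48 (adjusted p = 0.117) and -0.05 (0.865). With no filter 10 were tested, of which 0 rose and 1 fell. Among the dim genes, Krt25 had signals of 3.3 to 23.4 at 10 weeks and 46.4 to 66.6 at 5 weeks. Krt27 had 21.3 to 31 at 10 weeks and 33 to 159.6 at 5 weeks. The part of skin RNA in the keratin values was not tested.

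Markers of other neighbouring cells were measured too, again beside 15.3% of all genes tested that rose and 18.7% that fell. Of 16 muscle genes 7 fell and 0 rose. This count was 0 without 5-week pool 1, without 5-week pool 3 or with robust variance, 2 with no filter and 3 with no variance trend, and it was 10, 11 and 10 without 10-week pools 1, 2 and 3. The brightest muscle genes, Acta1 and Ckm, had log2 differences of -0.98 (adjusted p = 0.174) and -1.88 (0.113). Without 10-week pool 1 Ckm passed with a smaller difference (-0.70, adjusted p = 0.0256 in limma). Of 5 B cell and lymph node genes 0 were called in limma (1 at an unadjusted p under 0.05), with a median of -0.35 that turned to 0.57 without 5-week pool 2 (2 genes tested) and to 0.01 without 10-week pool 1, and 1 of 4 tested fell without 10-week pool 3. Ms4a1 and Cxcl13 of this list had differences of -0.14 (adjusted p = 0.904) and -0.35 (0.7). Of 5 adipocyte genes 3 fell, while the brightest, Adipoq and Retn, had differences of -0.22 (adjusted p = 0.116) and -0.49 (0.0888). Adipoq passed with quantile normalization (-0.38, adjusted p = 0.0109 in limma). Of 5 fibroblast genes 4 fell, among them the decorin gene Dcn, by 0.46 on the log2 scale, and the collagen gene Col3a1 had a difference of -0.20 (adjusted p = 0.209). The summed signal was 18480 to 25060 at 10 weeks and 31140 to 37700 at 5 weeks for adipocytes, and 39370 to 41930 at 10 weeks and 54060 to 64540 at 5 weeks for fibroblasts.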

How the data were processed

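Biotin-labelled total RNA of 6 pools was measured on 6 arrays, per the labels. The deposited values are linear signal intensities, 1 for each of 45101 probe sets. The 2% trimmed mean was 500 on every array, so the deposited intensities were already scaled by the authors. The name of their algorithm was not given in the sources used here. After 64 controls were left out, 34945 probe sets had a single symbol, updated through RefSeq gene identifiers (GRCm38.p6) for 34741. Signals were raised to at least 1, and tests used log2(signal + 32), a scale on which differences of dim genes are understated. Array medians differed by 0.118 on the log2 scale, within a tolerance of 0.2, so arrays were compared without another normalization. A filter removed the dimmest 40% of probe sets by mean, and 27022 entered limma 3.58.1 in R 4.3.3 (lmFit, eBayes with a variance trend, 4 residual degrees of freedom, two-sided, Benjamini-Hochberg over all probe sets). Each of 13002 genes was represented by its brightest probe set. The steps were also run on simulated arrays with known changes. Noise was drawn independently for each probe set, so shared differences between pools, such as muscle content, were not simulated. Nothing pairs the pools: replicate numbers follow accession order.

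The members, the gene lists and the tests were chosen with earlier results of these data known. All keratin probe sets are named. From each pathway list up to 3 called genes with the smallest adjusted p in the main direction and the largest call the other way are named, from each marker list the 2 brightest, and for each keratin the 2 nearest genes. Sentences that single out Plec, Trp63, Krt1, Krt2, Krt42, Krt25 and Krt27 add genes chosen after their values were seen. Alternatives changed the offset, filter, normalization, variance model, array weights and probe sets of a gene, and left out each pool in turn. Plots were drawn with matplotlib 3.10.9 in Python 3.11.15.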

Additional observations from a re-analysis of the deposited data

How the results depend on the processing

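Over 16 alternatives, Krt14 and Krt19 stayed higher and Krt7 lower at 10 weeks, all past the threshold, and Krt5 passed under none. No keratin difference changed sign. Krt8 lost its call with no filter or no variance trend (0.38 each), quantile normalization (0.26) and median scaling (0.40), and leaving out a pool gave 0.28 to 0.47. Krt18 gained a call with the stricter filter or robust variance (0.32 each) and array weights (0.33), and leaving out a pool gave 0.25 to 0.40. Krt17 lost its call with no filter (-0.56) and median scaling (-0.54), and leaving out a pool gave -0.68 to -0.50. Krt15 ranged from -2.31 to -0.85 when a pool was left out. Krt15 and Krt17 have no value under the stricter filter, which removes the lowest 60% of probe sets. The luminal minus basal difference (0.32) was -0.13 without Krt15 and 0.63 without Krt7, and the Krt8 to Krt18 ratio difference (0.05) was 0.22 with averaged probe sets. Genes higher numbered 1992 and lower 2436, and both counts stayed within 1.5 times under every alternative. The causes of these changes were not tested. No paired analysis was possible because the labels give the pools no shared replicate numbers. Low signals limit Krt15 and Krt17, whose lowest pools had 13.5 and 94.1.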

Other observations

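One further probe set, 1427841_at, carries the symbols of both Krt17 and Krt14 in the platform annotation and so entered no comparison. Its signal was 177, 160.2 and 167 at 10 weeks and 155.8, 111.2 and 144.4 at 5 weeks. Every 10-week pool lay above every 5-week pool.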
